A study of Mus musculus with 2 samples.

Results

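The Janus kinases (JAKs) and the signal transducers and activators of transcription (STATs) were examined in wild-type splenic B cells. The 9 genes were Jak1, Jak2, Jak3 and Tyk2 for the kinases and Stat2, Stat3, Stat5a, Stat5b and Stat6 for the factors. Every probe set annotated to exactly 1 of these symbols was taken, which gave 18 of 20380 probe sets naming a single gene. The cells were B cells bearing surface IgM and IgD, sorted by flow cytometry from mouse spleen, and carried no genetic modification. The series was built around deletion of serum response factor (SRF), a transcription factor, in such cells. The 2 wild-type arrays are described; SRF-deficient samples were not analysed here, so genotypes are not compared. The labels used here give no strain, age or sex, nor whether each sample was 1 mouse or a pool.

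JAKs are tyrosine kinases bound to the inner tails of cytokine receptors. When a cytokine joins its receptor chains, the JAKs phosphorylate each other, the receptor and then the STATs, which pair, enter the nucleus and bind DNA at elements known as GAS or, for STAT2 with IRF9, at the interferon-stimulated response element (ISRE). In B cells the pathway is known for the response to IL-4 through JAK1, JAK3 and STAT6, which directs class switching, for the responses to IL-10 and IL-21 through STAT3, and for the response to type I interferon through JAK1, TYK2 and STAT2.

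Each array gave 1 signal per probe set on the linear scale of MAS5, with no counts behind it. A signal was called above the floor of its array when it exceeded the 90th percentile of a set of 61 organ-restricted genes (86 probe sets; liver, brain, testis and the like), which was 153.8 on replicate 1 and 84.1 on replicate 2. A gene was called above the floor on both arrays when at least 1 of its probe sets was. Replicate 1 and replicate 2 are names only. The samples differed in sex-linked genes, with Xist at 740 and 15.3 and the Y-linked Eif2s3y at 3.40 and 249 on replicates 1 and 2. The 3′ to 5′ signal ratio of Actb, a sign of RNA integrity, was 3.57 on replicate 1 and 8.15 on replicate 2. For Gapdh it was 1.31 on replicate 1 and at least 9.80 on replicate 2, where the 5′ signal of 13.5 was below the floor and was set to it. The part of sex or of RNA integrity in the differences below was not tested. Of 7 B cell markers measured, 6 were above the floor on both arrays, all but Pax5, whose signals were 21.5 and 15.6. The 6 were not alike on the arrays, and Cd79a gave 2931 on replicate 1 and 192 on replicate 2. Over the 9 B cell marker probe sets that passed both floors, the pooled SD of log2 signal was 1.27. Over all such probe sets it was 0.65. Among 44 markers of T, NK, myeloid, erythroid and dendritic cells, 5 passed both floors, 3 of neutrophils (S100a8, S100a9 and Ngp) and 2 of monocytes and macrophages (Csf1r and Lyz2). None of the 44 was listed at 0, and their summed signal was 4208 on replicate 1 and 2945 on replicate 2. The 10 T cell markers summed to 760.3 and 287, with 0 of them above the floor on both arrays.

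Both wild-type samples carried signal for all 4 kinases and for 3 of the 5 STATs. Of the 9 genes, 7 were above the floor on both arrays, against 33.0% of all 12393 genes. The exceptions were Stat5a and Stat5b, which were above it on neither array. By probe set the count was 11 of 18, against 26.8% of all probe sets, with all 7 JAK probe sets and 4 of 11 STAT probe sets passing both floors. A gene with several probe sets has more chances to pass, and 7 of the 9 genes had 2 or 3. In sorted cells of this kind a lower signal from fewer cells of a type and one from less RNA per cell cannot be told apart. Because affinity varies from probe to probe, levels are compared within a probe set and not across probe sets.

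**Figure D1:**
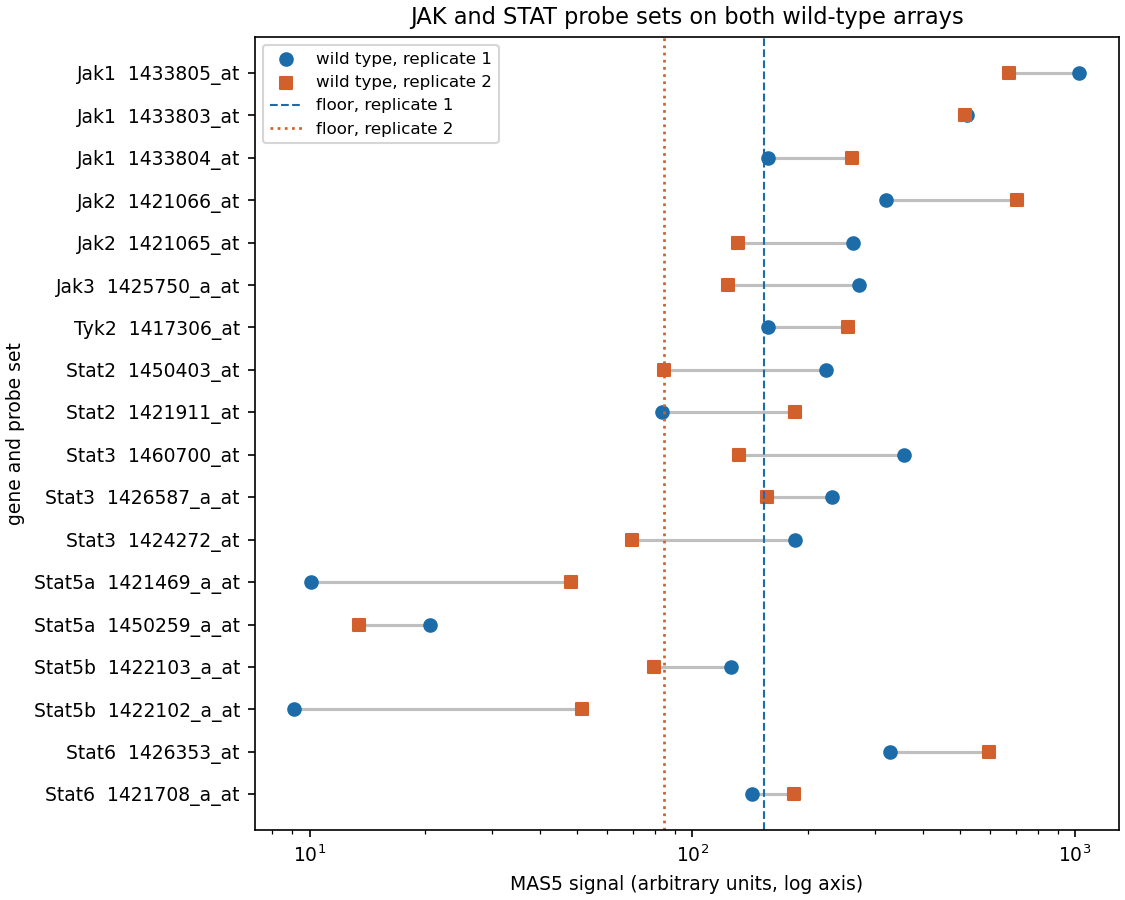
Signal of each of the 18 JAK and STAT probe sets (rows) on wild-type replicate 1 (circles) and replicate 2 (squares), on a log axis, with grey lines joining the samples and vertical lines at the floors of 153.8 and 84.1. All JAK probe sets lie to the right of their floors, and the 4 probe sets of Stat5a and Stat5b lie to the left of theirs.

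Jak1 encodes the kinase shared by receptors of the IL-2 family, the IL-6 family and the interferons. Its first probe set, 1433805_at, read 1027 in the first sample (replicate 1) and 671 in the other (replicate 2), averaging 849 ± 252 (SD, n = 2). Its second, 1433803_at, gave 521 and 516, or 518 ± 3.68 (SD, n = 2). The last, 1433804_at, gave 158 and 262, or 209.9 ± 73.7 (SD, n = 2). The first was 1.53-fold higher on replicate 1 and the last 1.66-fold higher on replicate 2, so that probe sets of the same gene, designed on the same sequence record, went in opposite directions on the deposited scale and after quantile normalization, while median centring put all 3 above 0. On replicate 1 the last lay just over the floor, at 1.03 times its value. By rank, 1433805_at stood at percentile 97.7 of the 22626 gene probe sets on replicate 1 and 93.7 on replicate 2, and 1433803_at at 94.1 and 91.8.

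Jak2 encodes a kinase used by receptors for interferon gamma, for growth hormone and for haematopoietic cytokines such as erythropoietin. Probe set 1421066_at gave 321 on replicate 1 and 704 on replicate 2, averaging 513 ± 271 (SD, n = 2) and 2.19-fold higher on replicate 2. Probe set 1421065_at gave 263.5 and 131, averaging 197 ± 93.4 (SD, n = 2) and 2.01-fold higher on replicate 1. Both passed on both arrays, so the presence of Jak2 signal did not depend on the probe set, while the direction of its difference did. After quantile normalization the log2 differences, replicate 2 minus replicate 1, were 0.87 and -0.79, and they kept their signs under median centring too.

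Jak3 encodes the kinase that pairs with the common gamma chain of the receptors for IL-2, IL-4, IL-7 and IL-21 and is largely restricted to blood cells. Its single probe set read 273 on replicate 1 and 124 on replicate 2, averaging 198 ± 105 (SD, n = 2) and 2.21-fold higher on replicate 1. It lay above the floor by 1.77 times on replicate 1 and 1.47 times on replicate 2. Another 2 probe sets were annotated to Jak3 together with Insl3, its neighbour on the chromosome in RefSeq, and were left out of the members. Tyk2 encodes the kinase of the type I interferon, IL-10 and IL-12 receptors. Its single probe set read 158 on replicate 1 and 256 on replicate 2, averaging 207 ± 69.3 (SD, n = 2) and 1.62-fold higher on replicate 2. On replicate 1 this was 1.03 times the floor, and with the floor at the 95th percentile Tyk2 was no longer above it on both arrays.

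Stat2 encodes the partner of IRF9 in the complex that type I interferon brings to the ISRE. Probe set 1450403_at gave 224 on replicate 1 and 84.5 on replicate 2, averaging 154 ± 98.4 (SD, n = 2) and 2.65-fold higher on replicate 1. Probe set 1421911_at gave 83.3 and 185.5, averaging 134 ± 72.3 (SD, n = 2), and passed the floor of replicate 2 alone. The probe sets thus placed the higher signal in different samples. The call of Stat2 above both floors rested on 84.5 against a floor of 84.1, and it was lost with the 95th-percentile floor and with probe sets ending in _x_at left out of the floor.

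Promoter windows of RefSeq genes on GRCm38.p6, from 250 bases before the start to 50 after it, were searched for the letters that STAT complexes are known to bind. The motifs were TTC and GAA with 3 bases of any kind between them, TTC and GAA with 4 bases between them, each its own reverse complement, and for the ISRE a pair of TTTC with 2 bases between them, on both strands, which was added once the first results were known. All 9 members had a window, 11 in all. The motif with 3 bases between was in 0 of the 11, against 8.30% of all 32851 windows. The motif with 4 bases between was in 1 of 11, against 6.95% of all, and the ISRE in 1 of 11, against 3.44%. The latter pair were both in the window of Stat2, and they do not overlap. Over the windows of the listed targets of STAT2 and IRF9, 7 of 12 held the ISRE, against 3.44% of all. The stretch of Stat2 is shown with the interferon targets Ifit1, Oas1a and Rsad2, whose windows hold the same ISRE letters, so that they can be read side by side. Each runs 5′ to 3′ on the gene's strand, and capitals mark every match of any of the 3 motifs. In Oas1a these matches overlap, so that its capitals form 1 run.
Stat2, chr10:128270261-128270312, plus strand, ISRE then TTC and GAA 4 bases apart: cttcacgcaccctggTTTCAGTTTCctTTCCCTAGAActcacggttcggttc
Ifit1, chr19:34640770-34640828, plus strand, ISRE: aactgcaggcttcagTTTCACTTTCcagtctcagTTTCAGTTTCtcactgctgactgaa
Oas1a, chr5:120907526-120907560, minus strand, TTC and GAA 4 bases apart, overlapping ISRE letters read on the other strand: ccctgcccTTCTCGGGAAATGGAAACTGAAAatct
Rsad2, chr12:26456548-26456587, minus strand, ISRE: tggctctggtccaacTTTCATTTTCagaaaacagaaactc
Stat2 and Ifit1 hold the identical match TTTCAGTTTC, which Oas1a holds on the other strand. In Stat2 the matches lie 201 to 222 bases before the start. Oas1a gave signals of 291 and 202.5 and Rsad2 of 350.3 and 153 on replicates 1 and 2, above the floor on both, while Ifit1 gave 118 and 31.7, below it on both. The call of Rsad2 rested on 1 of its 3 probe sets. Its others gave 84 and 12.2, and 47.9 and 14.6, below the floor on both arrays. A match of letters is a description of the sequence, and binding was not measured.

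Stat3 encodes the factor activated by IL-6, IL-10 and IL-21. Probe set 1460700_at gave 358 on replicate 1 and 132 on replicate 2, averaging 245 ± 159 (SD, n = 2) and 2.70-fold higher on replicate 1. Probe set 1426587_a_at gave 232 and 156.5, or 194 ± 53.5 (SD, n = 2). Probe set 1424272_at gave 185 and 69.7, or 127 ± 81.5 (SD, n = 2), and was below the floor on replicate 2. All 3 probe sets were higher on replicate 1 on the deposited scale, with log2 differences of -1.43, -0.57 and -1.41, and after median centring 1426587_a_at turned to 0.06 while the others kept their sign. Stat3 had its 3 probe sets in a single direction on the deposited scale, while Jak1, the only other member with 3, had them in both directions.

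Stat5a and Stat5b encode very similar factors activated by IL-2, IL-7 and growth hormone, and RefSeq places Stat5b, Stat5a and Stat3 next to each other. Stat5a gave 10.1 on replicate 1 and 48.3 on replicate 2 by 1421469_a_at, and 20.7 and 13.5 by 1450259_a_at. Stat5b gave 126.5 and 79.2 by 1422103_a_at, and 9.10 and 51.4 by 1422102_a_at. None of these 8 signals exceeded its floor, and no fold is given between signals below it. The highest relative to its floor was 1422103_a_at, at 0.94 times the floor on replicate 2. With a floor at the array median, or at the 75th percentile of the genes of other organs, Stat5b passed on both arrays and Stat5a did not. Hybridization of transcripts of one gene to probes of the other could not be told apart here.

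Stat6 encodes the factor of IL-4 and IL-13 signalling. Probe set 1426353_at gave 328 on replicate 1 and 595 on replicate 2, averaging 461 ± 189 (SD, n = 2) and 1.81-fold higher on replicate 2. Probe set 1421708_a_at gave 143 and 185, or 164 ± 29.5 (SD, n = 2), and was below the floor on replicate 1. Stat6 signals were higher on replicate 2 by both probe sets, with log2 differences of 0.86 and 0.37, and this direction held after quantile normalization and after median centring. The first probe set stood at percentile 87.9 on replicate 1 and 93.0 on replicate 2.

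Among STAT5 and STAT6 targets, Bcl6 and Fcer2a were above the floor and their windows hold STAT motif letters before the start. Bcl6, the repressor of the germinal centre, gave 323 and 533 by 1 probe set and 179.7 and 181 by the other. Fcer2a, which encodes the low-affinity IgE receptor CD23 and is induced by IL-4, gave 1081 and 978 by its first probe set, and 315.5 and 9.40 by its second. Bcl6 is shown because 1 of its windows holds 3 matches with 3 bases between TTC and GAA, as many as any window held. Fcer2a is shown for 1 match with 4 bases between, the spacing that STAT6 is known to prefer. A further match with 3 bases between lies in another window of Bcl6 and is not shown. Over the windows of this target list, 3 of 21 held the motif with 3 bases between, against 8.30% of all windows. The motif with 4 bases between was in 2 of 21, against 6.95%.
Bcl6, chr16:23981348-23981466, minus strand: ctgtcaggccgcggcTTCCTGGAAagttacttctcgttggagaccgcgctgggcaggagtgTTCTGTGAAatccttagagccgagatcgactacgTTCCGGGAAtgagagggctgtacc
Fcer2a, chr8:3691005-3691044, minus strand: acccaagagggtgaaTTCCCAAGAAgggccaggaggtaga
The matches shown for Bcl6 lie 80 to 168 bases before the start, and that in Fcer2a 159 to 168 bases before it.

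Differences between the samples were set against those of all probe sets above the floor. Among the 11 member probe sets that passed both floors, 4 were over 2-fold higher on replicate 1, against 13.8% of all such probe sets. These were 1 of Jak2, that of Jak3, 1 of Stat2 and 1 of Stat3. On replicate 2, 1 was over 2-fold higher, the other of Jak2, against 13.7%, and 6 lay within 2-fold, against 72.5%. Pooled over the 11, the SD of log2 signal was 0.68, or 1.60-fold, and 0.65 over all 5459 probe sets, or 1.57-fold. With 2 samples of 1 group no difference could be tested, and the small number of arrays limits the precision.

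**Figure D2:**
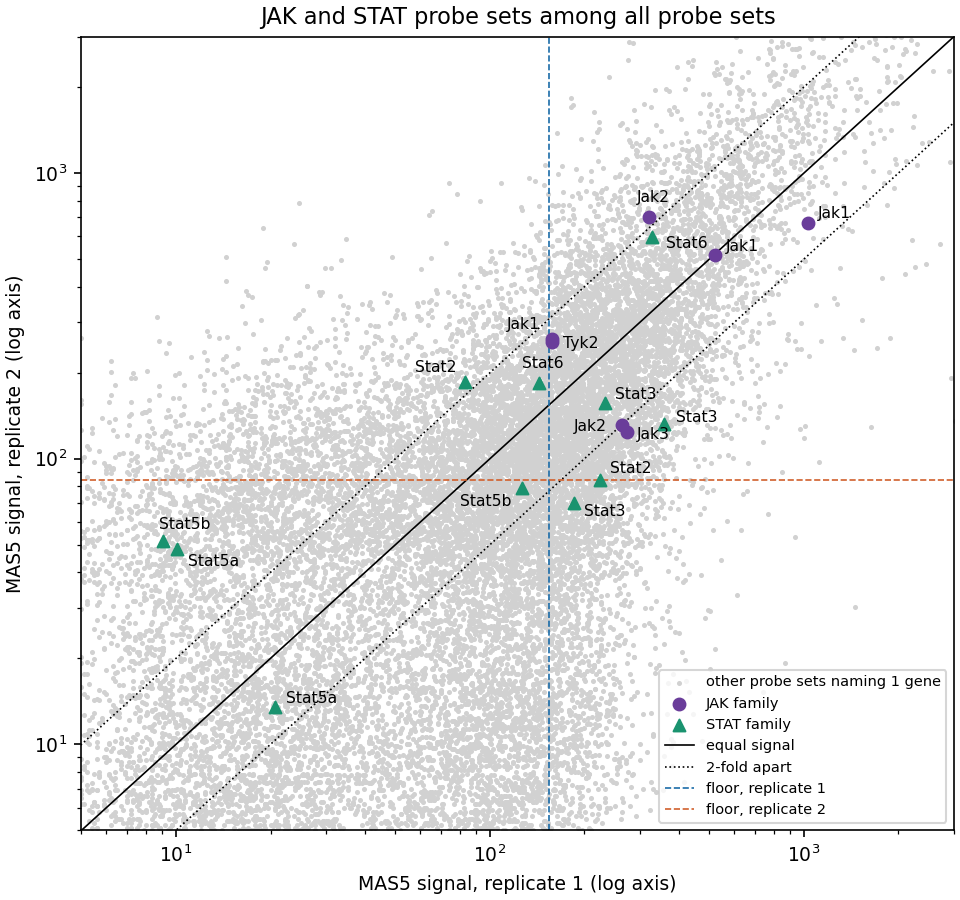
Signal of each probe set on replicate 1 (x, log axis) and replicate 2 (y, log axis), with JAK probe sets as circles, STAT probe sets as triangles and other probe sets in grey; probe sets outside the axes are not drawn. Dotted lines mark 2-fold and dashed lines the floors, and the members spread on both sides of the line of equal signal as the grey points do.

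The split of higher and lower probe sets depended on the scaling. The median log2 difference of the 11 was -0.57 on the deposited scale, against -0.04 over all 5459. Median centring raised every difference by the same amount, moving the median of all to 0.59 and that of the members to 0.06, so the members lay 0.53 below the median of all on both scales. With no floor, all 18 member probe sets had a median of -0.29, against -0.32 over all 20380, so the members then lay near the median of all. After quantile normalization the median was -0.38, against -0.06 over all. Past 2-fold, higher on replicate 1 and on 2 respectively, there were 3 and 0 with quantile normalization, against 11.2% and 9.53% of all, and 0 and 4 with median centring, against 2.97% and 33.6%. Under quantile normalization the 3 were 1433805_at of Jak1, 1450403_at of Stat2 and 1460700_at of Stat3. The 4 under median centring were 1433804_at of Jak1, 1421066_at of Jak2, Tyk2 and 1426353_at of Stat6.

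**Figure D3:**
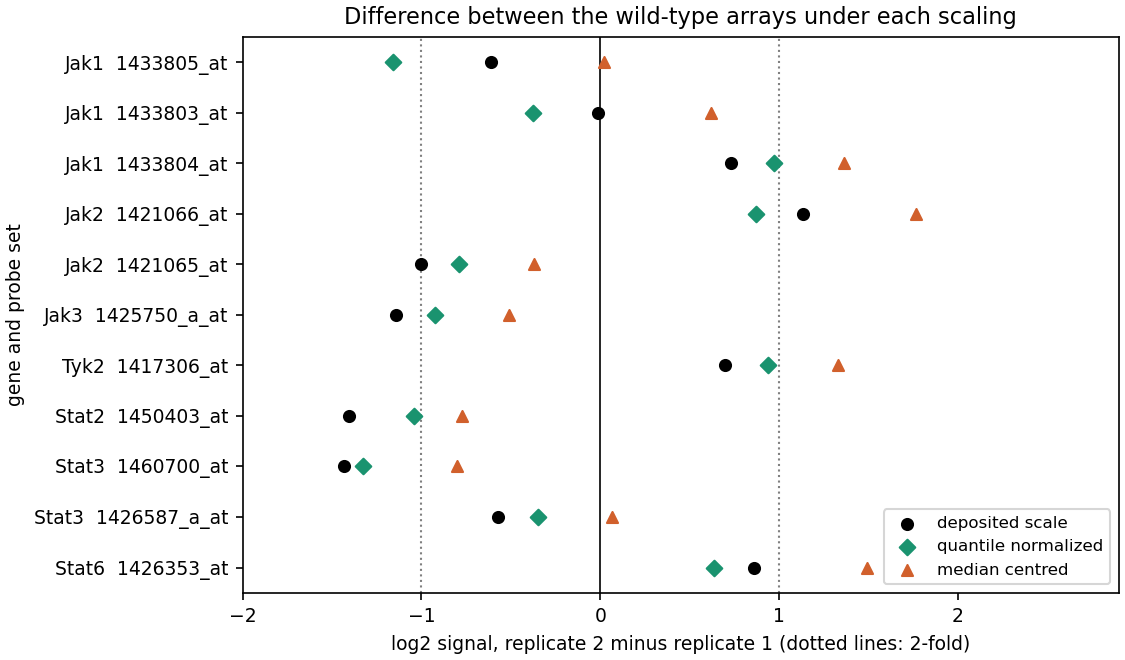
Log2 difference, replicate 2 minus replicate 1, of the 11 JAK and STAT probe sets that passed both floors, on the deposited scale (circles), after quantile normalization (diamonds) and after median centring (triangles), with dotted lines at 2-fold. Stat6, Tyk2, 1433804_at of Jak1 and 1421066_at of Jak2 lie to the right of 0 under all 3, and Jak3, Stat2, 1460700_at of Stat3 and 1421065_at of Jak2 to the left.

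Probe sets of the same gene often differed. Of the members, 3 had at least 2 probe sets that passed both floors, and in 2 of them, Jak1 and Jak2, the probe sets had opposite signs on the deposited scale. Among all 988 genes with at least 2 such probe sets, 51.8% had opposite signs. The span between probe sets was 1.35 on the log2 scale for Jak1, 2.14 for Jak2 and 0.87 for Stat3, against a median of 1.05 over the 988 genes.

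The rest of the pathway was read from 5 lists of 80 genes in all, of which 73 were measured and 37 passed both floors. The receptor list holds chains of receptors that signal through JAKs, and some of them, such as Il6ra and Il2ra, do not bind a JAK themselves. Of these chains, 6 of 19 were above the floor on both arrays, beside the 33.0% of all genes. On replicate 1 alone the count was 10 and on replicate 2 alone 11, beside 43.3% and 50.3% of all genes, and it was 11 with the floor at the 75th percentile, which 48.3% of all genes passed. Ifnar1, a chain of the type I interferon receptor that binds TYK2, gave 359 and 401 on replicates 1 and 2, and Il10rb, which also binds TYK2, 326 and 380.5. Il4ra, the receptor chain upstream of STAT6, gave 291 and 179, and Il6ra 239 and 158. Ifngr2, the chain that brings JAK2 to the interferon gamma receptor, gave 237 and 116 by 1 probe set, over 2-fold higher on replicate 1. Its other probe set gave 26.1, below the floor, on replicate 1 and 401 on replicate 2.

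Inhibitors and phosphatases were above the floor in 12 of 19 cases, beside 33.0% of all genes. Ptprc, which encodes CD45, gave 3534 and 6221, Ptpn11, which encodes SHP-2, 558.5 and 994, and Ptpn6, which encodes SHP-1, 809.6 and 738. Ptpn2, a phosphatase of JAK1 and JAK3, gave 301 and 1250.4 by its brightest probe set, 4.16-fold higher on replicate 2, but 528 and 543 by another. Over 2-fold higher on replicate 1 were Cish, a feedback inhibitor induced by STAT5, at 328 and 115, and Pias4 and Pias3, which encode inhibitors of STATs, at 433 and 158, and at 247 and 93.3. By the brightest probe set, replicate 2 was over 2-fold the higher in 14.5% of all genes above the floor and replicate 1 in 13.2%, and here the counts were 1 and 3 of 12.

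Partners of the STATs were above the floor in 7 of 10 cases, beside 33.0% of all genes. The coactivator Ncoa1 gave 337 and 442, the deacetylase gene Hdac1 428 and 661, Sh2b1, an adaptor of JAK2, 439.5 and 252, and the importin gene Kpna1 452 and 268. Kpnb1, the other importin subunit, gave 171 and 611 by its brightest probe set, over 2-fold higher on replicate 2. Another of its probe sets that passed both floors gave 185.5 and 90.6, over 2-fold higher on replicate 1.

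Targets of STAT5 and STAT6 were above the floor in 11 of 15 cases, beside 33.0% of all genes, while both STAT5 genes were below it. Beside Bcl6 and Fcer2a, Xbp1 gave 569 and 1539.5 and the cyclin gene Ccnd2 273.5 and 1114, both over 2-fold higher on replicate 2 by the brightest probe set. The kinase gene Pim1 gave 503 and 117 by its brightest probe set, over 2-fold higher on replicate 1 as Cish was, and 196 and 169 by its other. Targets of STAT2 and IRF9 were above the floor in 4 of 15 cases, Oas1a, Rsad2, Usp18 at 157.5 and 104, and Rtp4 at 256 and 331, beside the 33.0% of all genes. The count was 5 on replicate 1 alone, 7 on replicate 2 alone and 7 with the floor at the 75th percentile, which 48.3% of all genes passed. Among the genes named from these lists, Ifngr2, Ptpn2, Ptpn6, Ptpn11, Ncoa1, Kpna1, Kpnb1, Ccnd2 and Xbp1 each had at least 1 other probe set, above the floor or not, with a difference of the opposite sign. Many of the listed targets also answer to other factors.

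**Figure D4:**
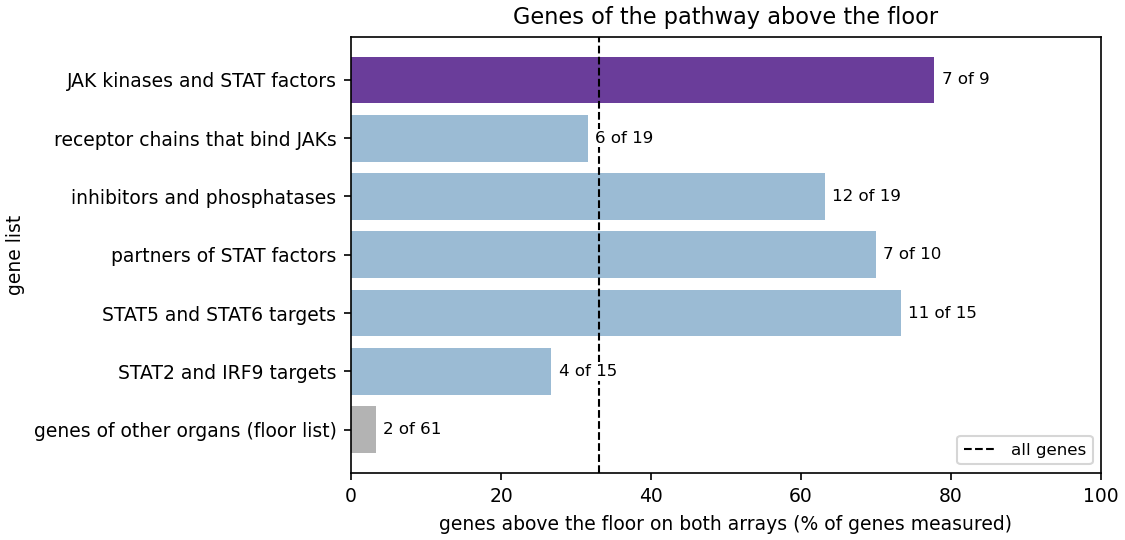
Share of measured genes above the floor on both arrays (bars from 0, in percent) for the JAK kinases and STAT factors, for 5 lists of the pathway and for the genes of other organs that set the floor, with counts beside the bars and a dashed line at the 33.0% of all genes. The JAK and STAT genes reached 7 of 9, receptor chains 6 of 19 and targets of STAT2 and IRF9 4 of 15. The bar of receptor chains holds chains of receptors that signal through JAKs, and not all of them bind a JAK themselves.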

How the data were processed

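Total RNA, 6 µg per sample, was labelled with biotin and hybridized to 1 Affymetrix array per sample, per the labels' protocols. The authors deposited signal intensities, which per the submitters' processing notes come from MAS5; its version and parameters are not given in the sources used here. The mean of the deposited intensities after trimming 2% at each end was 150.03 and 150.06, so each array had been scaled to a common target, which also multiplies its background. Of 22690 rows, 64 controls were left out. Of the rest, 20380 named 1 gene, 691 several and 1555 none, per the platform annotation, and the symbols of all 9 members matched RefSeq by Entrez identifier.

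Differences are log2 signals, replicate 2 minus replicate 1, taken without further scaling. The brightest probe set of a gene, by mean log2 signal, stands for it, and over 2-fold means a log2 difference of at least 1. No test was run, since there are 2 samples of 1 group. From each pathway list the text names the 4 brightest genes, or fewer, that passed both floors and up to 3 over 2-fold in each direction. A further probe set is given for some. The members and lists were chosen with earlier results of these data known. The identity of the proteins was not computed, as no protein sequences were used here. Alternatives were other floors, quantile normalization, median centring, log2(signal + 32), a 1.5-fold limit, the mean over probe sets and leaving out each replicate. The steps were tested on simulated data, with noise smaller than the spread between these arrays. That test therefore cannot say how reliable the 2-fold calls are here. Python 3.11.15, numpy 2.4.6 and pandas 2.3.3 were used.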

Additional observations from a re-analysis of the deposited data

Results flagged for a closer look

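Probe set 1423021_s_at, annotated to Jak3 together with Insl3 and therefore not among the members, gave 51.5 on replicate 1 and 242.1 on replicate 2. It was singled out because the signal on replicate 2 lay above the floor of 84.1 in data that the member probe sets do not use. The probe set of Jak3 alone was lower on replicate 2, with 273 and 124. The other shared probe set, 1427092_at, gave 7.30 and 8.40 and passed neither floor.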

How the results depend on the processing

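The count of members above the floor ranged from 5 to 8 of 9 over the other floors, with 5 at the 95th percentile (without Tyk2 and Stat2), beside 25.0% of all genes, and 8 at the 75th percentile or at the array median (with Stat5b), beside 48.3% and 42.8%. It was 6 without probe sets ending in _x_at (without Stat2), beside 3941 of all genes against 4095. Judged on 1 array alone, it was 7 without replicate 1 and 7 without replicate 2, beside 50.3% and 43.3% of all genes. In the same order, 13 and 12 of the 18 member probe sets passed, beside 43.6% and 35.0% of all probe sets. Of the 73 measured genes of the pathway lists, 49 and 44 passed. The count over 2-fold higher on replicate 1, 4 on the deposited scale, was 0 with median centring and 2 with log2(signal + 32), beside 2.97% and 9.34% of all probe sets. The count over 2-fold higher on replicate 2, 1 on the deposited scale, was 4 with no floor, 0 with quantile normalization, 4 with median centring and 4 at 1.5-fold, beside 19.5%, 9.53%, 33.6% and 25.6% of all. The median log2 difference turned from -0.57 to 0.064 with median centring, which adds 1 constant to every difference. The mean over all probe sets of a gene moved the signal by more than 1 SD in 2 of 9 genes, Jak1 to 526 and Stat5b to 66.5, and quantile normalization in 0 of 9. No paired analysis was possible because all samples belong to 1 group. The distance of a signal from the floor limits each call, and 3 of the 18 probe sets lay within 5% above a floor on 1 array.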

Other observations

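The genes with a Socs symbol passed both floors in 1 of 7 cases, beside 33.0% of all genes, a family singled out after its values were seen. The one was Socs3, by 1455899_x_at with 203 on replicate 1 and 90.4 on replicate 2, while its other probe sets gave 135 and 145, and 19.5 and 26.4. Socs1 gave 5.40 and 12.5, and Socs2 at most 33.8 on replicate 1 and 74.3 on replicate 2. Cish, the feedback inhibitor induced by STAT5, was not counted among the 7 and passed both floors, at 328 and 115. Of the protein tyrosine phosphatases of the same list, also singled out afterwards, 5 of 5 passed both floors.

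Among the member probe sets, 9 of 11 with the plain ending _at passed both floors and 2 of 7 with the ending _a_at, which marks probes shared by transcripts of 1 gene. Over all probe sets the shares were 23.5% and 31.4%. All 4 probe sets of Stat5a and Stat5b end in _a_at.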
